A study of Drosophila melanogaster with 6 samples.

Results

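The transcriptome described here is that of control enteroendocrine cells (EEs), the hormone-producing cells of the adult fly midgut. A gene was taken as a member of it when it had at least 10 CPM (the gene's count divided by all counts of its sample, times 1000000) in all 3 control samples. By this rule 5118 of the 17558 genes in the count table were members, which is 29.1% of the table. The levels described below are the values the members were chosen by, so they are a description and none of them was tested. All control flies were females of the genotype prosV1-Gal4ts, UAS-GFP, 5 to 7 days old when they were shifted to 29 °C for 7 days, where Gal4 becomes active. The prosV1-Gal4 driver marks EEs with GFP, and each sample held RNA of about 20000 living GFP+ cells (negative for propidium iodide) sorted from pooled guts. The sort therefore mixed EEs of all midgut regions and subtypes, and in bulk RNA fewer cells of a subtype cannot be told apart from less RNA per cell. The other 3 of the 6 samples of the series came from flies in which pros was also depleted by RNAi, and these were not used here.

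EEs sense food, microbes and stress in the gut lumen and answer by releasing peptide hormones from dense-core vesicles. Each hormone is made as a precursor, cut by a prohormone convertase, trimmed by a carboxypeptidase and often amidated at its end before release. Most fly EEs fall into a class I that makes AstC and a class II that makes Tk, each with regional subtypes that add further hormones. A minor class III is distinguished by sNPF. The transcription factor Pros marks EEs in general. Secretion of such vesicles in endocrine cells in general follows a rise of calcium through voltage-gated channels.

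The markers of the label, the mRNAs of pros, Tk, AstC and NPF, were all members. This does not test the label, because the cells were sorted by the prosV1-Gal4 driver. The same minimum was passed by 21 of 33 enterocyte and digestive genes and 8 of 11 progenitor markers, described below. The transcription factor pros (chromosome 3R, 11328480 to 11407627) had 487, 518 and 805 CPM in control samples 1, 2 and 3, and Tk, AstC and NPF were among the 20 genes with the most counts. Control samples held 40766059, 29602875 and 36100275 counts, and members took 97.9% ± 0.130 of them (SD, n = 3). A floor of 3 counts corresponded to between 0.0736 and 0.101 CPM, a limit set by counting alone, because reads from amplified RNA do not each stand for 1 molecule. No 2 control samples held counts equal within sampling noise: over members, chi-square divided by its degrees of freedom lay between 260.5 and 643. Nothing in the labels says more on their origin than that they are separate samples, which the methods call independent replicates.

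Members were not evenly spread over gene classes. Protein-coding genes made up 5031 of the 5118 members, or 36.3% of the 13862 protein-coding genes in the table, and 33 were long non-coding RNAs, 1.798% of 1835. The share of members in each gene list below is to be read beside these 36.3% and the 29.1% of the whole table. No transfer RNA, microRNA or small nucleolar RNA gene was a member, but whether the amplification captured such short RNAs is not given. The chromosomes differed in the share of their genes that were members, with 47.7% of 111 genes on chromosome 4, 32.6% of 2647 on X and 25.2% of 3465 on 2L. None of the 71 genes on Y was a member. Exons of members had a median length of 2237 bp, against 1151.5 bp for the 12440 other genes. Because a longer gene can collect more reads, levels of different genes are compared below as CPM per kb of exon length. CPM is used for shares of the counts. Over members, the Spearman correlation with exon length was -0.014 for CPM and -0.617 for CPM per kb. CPM itself thus did not rise with length here, and the order of genes of unlike length depends on the scale.

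The threshold cut through a continuous distribution. Just inside it were CG10747, cnir and Girdin, whose lowest values over the 3 samples were 10.0083, 10.0276 and 10.0276 CPM. CG34015, CG4619 and CG9630 were just outside, with lowest values of 9.99992, 9.99992 and 9.99903 CPM. A further 711 genes reached the minimum in 1 or 2 of the 3 samples, and 2563 genes of the table had no count in any control sample.

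A small number of genes carried most of the RNA. In the 3 samples, 99, 95 and 106 genes held 50% of all counts, and 2146, 2114 and 2130 genes held 90%. The 20 genes with the most counts took 31.4% ± 1.31 of the counts (SD, n = 3). These 20 were 6 mitochondrially encoded genes, 6 peptide hormones, the dense-core vesicle protein IA-2, 3 genes of translation and 4 genes that carry only a CG number in the table. The mitochondrial large ribosomal RNA (mt:lrRNA, mitochondrial genome, 12734 to 14058) ranked first with 90916, 63872 and 58090.2 CPM. AstC came next, before the cytochrome oxidase gene mt:CoI. The genes of translation were the elongation factor Ef1alpha48D and the ribosomal protein genes RpL5 and RpS23. Ef1alpha48D had 8124, 8352 and 7877 CPM, the closest set of 3 values among the 20.

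**Figure D1:**
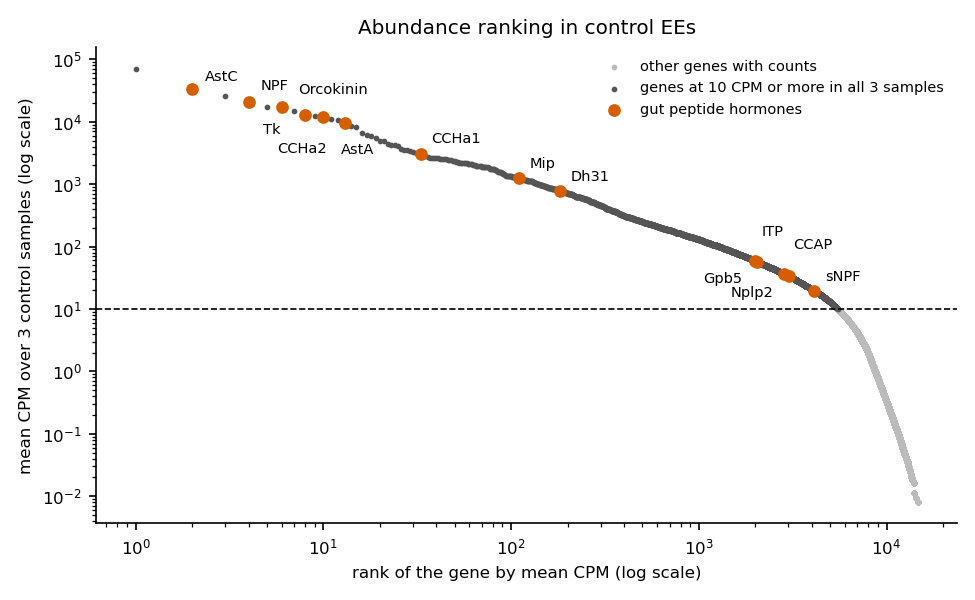
Mean CPM over the 3 control samples (log scale) against the rank of each gene by that mean (log scale). Dark points are the 5118 members, light points are the other genes with counts, orange points are the 14 gut peptide hormones and the dashed line is the minimum of 10 CPM. The hormones AstC, NPF, Orcokinin, Tk, CCHa2 and AstA sit among the 20 highest ranks, and 5 others lie at rank 2001 or beyond.

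These 4 genes were CG16826, CG14989, CG9568 and CG1678, which RefSeq now names whe. CG14989 (chromosome 3L, 4087581 to 4092706) had 10843, 12027 and 14859 CPM, and CG9568 (2L, 9010583 to 9011358) had 7439, 7146 and 5041 CPM. The spread of both was within the range seen among the hormones, unlike that of the other 2. CG16826 (2L, 13347773 to 13349020) had 1648, 22824 and 20550.2 CPM, and CG1678 (X, 21402339 to 21402772) had 820.2, 12092 and 5225 CPM. Both were lowest in control 1 by a wide margin, so their place in the ranking rests on controls 2 and 3. Of all 5118 members, 1442 had no name other than a CG or CR number.

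Ranking per kb moved short genes up. After mt:lrRNA (53554 ± 13225 CPM per kb, SD, n = 3), the highest levels per kb were those of NPF, AstC, mt:CoI and mt:CoII. The 20 highest per kb also held CG45080, a gene of 280 bp with 974, 17039 and 6053 CPM per kb, and the long non-coding RNA CR40469, of 214 bp, with 14534, 2009 and 2288 CPM per kb. In both, 1 sample stood far above the other 2, and it was not the same sample. The ribosomal protein genes, RpL41, RpL23, RpS23 and RpLP2, were also among these 20, with mean levels between 5853 and 8164 CPM per kb.

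All 14 gut peptide hormones of the list were members, against 29.1% of the table and 36.3% of protein-coding genes. Together the 14 took 10.4%, 11.5% and 11.1% of the counts, a mean of 11.02% ± 0.590 (SD, n = 3). The 95% Wilson intervals of these shares, which cover counting error only, were 10.37% to 10.38%, 11.52% to 11.55% and 11.13% to 11.15%, far narrower than the spread between samples. The hormones fell into a high set of 9, at 599.6 CPM per kb and above, and a low set of 5, at 74.2 CPM per kb and below. Means ranged between 7.91 CPM per kb for sNPF and 34152 CPM per kb for NPF.

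NPF, the fly member of the neuropeptide Y family (chromosome 3R, 16609220 to 16611325), had 25586, 41818 and 35051 CPM per kb. AstC, related to somatostatin (2L, 11076165 to 11081399), had 30121, 27466 and 24627 CPM per kb. NPF was above AstC in controls 2 and 3 and below it in control 1, so the order of these 2 was not fixed. In CPM, without the correction for length, AstC was above NPF in all 3 samples, with 36206, 33014 and 29601 CPM, against 15326, 25049 and 20996 CPM for NPF.

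Orcokinin, which the table names CG13565 (2R, 23946959 to 23949076), had 7887, 12178 and 15020.0 CPM per kb and lay below AstC in all 3 samples. CCHa2, a CCHamide (3R, 13389059 to 13395197), had 7429, 8128 and 8804 CPM per kb. Tk, the tachykinin precursor (3R, 11994175 to 12005473), had 6998, 7740.3 and 8616 CPM per kb. CCHa2 exceeded Tk in each sample, yet the ratio was only 1.04 ± 0.0205 (SD, n = 3) and their ranges overlapped. AstA (3R, 24760530 to 24765071), with 8947, 6641 and 4106 CPM per kb, was above Tk in control 1 and below it in controls 2 and 3. AstC was 3.57 ± 0.723 times the level of Tk per kb (4.30, 3.55 and 2.86 in the 3 samples).

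CCHa1 (3R, 14092504 to 14096835) followed with 3891, 2923 and 3946 CPM per kb, then Mip, the allatostatin B precursor (3L, 17344947 to 17349666), with 774, 1056 and 836 CPM per kb. Dh31, a calcitonin-like diuretic hormone (2L, 8491868 to 8506845), had 493, 658 and 648 CPM per kb. The ranges of AstA and CCHa1, of CCHa1 and Mip, and of Mip and Dh31 did not overlap. Dh31 was in turn 8.42 ± 1.71 times Gpb5, the widest step between neighbours in the order.

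The low set held Gpb5, the beta subunit of a glycoprotein hormone (54.6, 101 and 66.5 CPM per kb), Nplp2 (39.3, 60.1 and 65.9 CPM per kb) and CCAP, crustacean cardioactive peptide (23.9, 36.1 and 27.1 CPM per kb). It also held ITP, ion transport peptide (13.2, 9.64 and 14.8 CPM per kb), and sNPF (5.41, 7.496 and 10.8 CPM per kb). Exons of CCAP share 78 bp with CG6972 and those of ITP share 296 bp with CG4622, both on the opposite strand, so their low levels are less certain. Gpb5 and Nplp2 were not apart, while Nplp2 lay above CCAP and CCAP above ITP in all 3 samples.

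**Figure D2:**
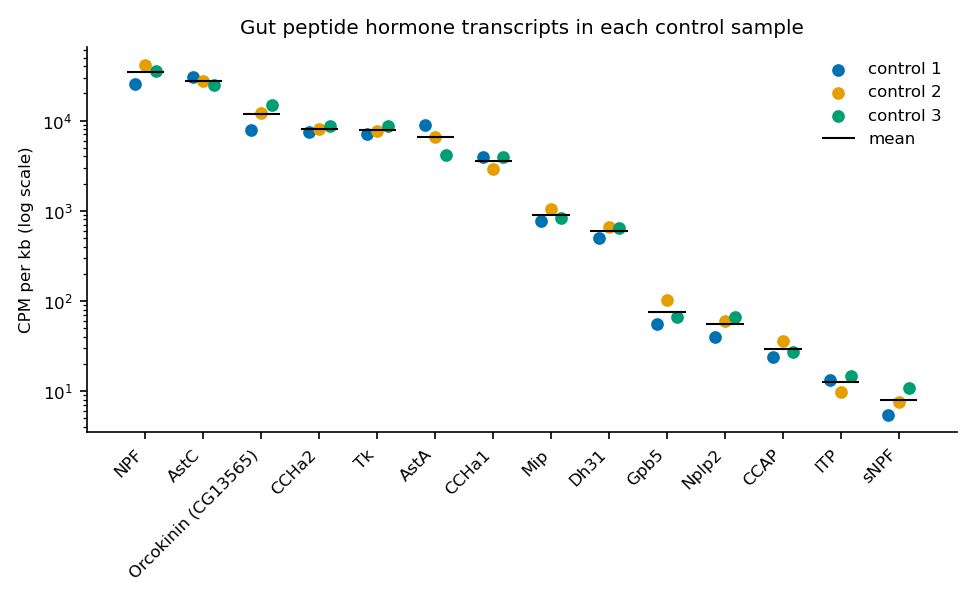
Level of each of the 14 gut peptide hormone transcripts in CPM per kb (log scale) in control samples 1, 2 and 3, ordered by their mean (black lines). NPF and AstC exchange places between samples, Orcokinin and AstA vary most among the highest, and a step separates Dh31 (599.6 CPM per kb) from Gpb5 (74.2 CPM per kb).

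Outside the gut hormone list, few neuropeptide genes were detected above the minimum. Both lists were drawn up with earlier results of these data known, so the contrast between them is no test. Of 37 other neuropeptide precursors, 1 was a member, which is 2.70% of the list against 29.1% of the table. It was Burs, the alpha subunit of the hormone bursicon, with 30.8, 29.9 and 19.8 CPM. The gene of the partner subunit, Pburs, had 1, 0 and 1 counts. Gpb5 likewise forms a heterodimer with Gpa2, which had 0 counts in each sample, although the table places Gpa2 on an unplaced scaffold. Next below the minimum was RYa, with 3.53, 4.86 and 5.51 CPM, and 4 of the 37 genes had no count in any control sample.

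Of 10 peptide processing genes 9 were members, with a median of 248 CPM per kb, against 18.7 CPM per kb for all members. Those of dense-core vesicles led. 7B2, the chaperone of the convertase amon, had 2618, 2895 and 3221 CPM per kb, and amon itself had 227, 249 and 267 CPM per kb. The ratio of 7B2 to amon was 11.7 ± 0.290 (SD, n = 3), nearly the same in every sample. Phm, which carries out the first step of amidation, had 1829, 2278 and 1961 CPM per kb. Pal2, an enzyme of the second step, had 171, 202 and 249 CPM per kb, and the related Pal1 had 13.3, 15.2 and 11.1 CPM per kb. Pal2 shares 592 bp of its exons with CG30183 on the opposite strand.

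IA-2 (chromosome 2L, 1008378 to 1048053), a tyrosine phosphatase-like membrane protein of dense-core vesicles, took more counts than Tk, with 16369.8, 15972 and 20229 CPM. Its exons cover 10257 bp, so its level per kb, 1708 ± 229 (SD, n = 3), was below those of 7B2 and Phm. The carboxypeptidase svr had 294, 303 and 291 CPM per kb, with a coefficient of variation (CV, the SD over the mean) of 2.13%. CG5355 had 31.7 ± 4.93 CPM per kb and the furin Fur1 13.7 ± 2.34 CPM per kb. Fur2 was the 1 gene of the list below the minimum, at 6.67, 5.95 and 10.4 CPM.

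Receptors stood at far lower levels than the hormones. Of 39 peptide hormone receptors 8 were members (20.5%), a share below that of the table, and their median was 8.16 CPM per kb. With the minimum set at 20 CPM 5 receptors passed, and with it set on length-corrected values (10 TPM) 3 did. The receptor of NPF, NPFR, led with 30.8, 29.8 and 34.8 CPM per kb, then AstA-R2 (21.5, 25.03 and 24.2 CPM per kb) and CCHa1-R (14.6, 25.4 and 20.8 CPM per kb). TrissinR and ETHR, the receptors of trissin and of ecdysis triggering hormone, had 9.75 ± 2.37 and 6.57 ± 0.286 CPM per kb. Dh44-R2, sNPF-R and the insulin receptor InR were members at under 5 CPM per kb. Dh44-R2 shares 1074 bp of its exons with genes on the opposite strand.

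Receptors of several abundant gut hormones were below the minimum. AstC-R1 had 6.26, 6.25 and 3.46 CPM and AstC-R2 had 2.53, 4.02 and 2.88 CPM. TkR99D had 2, 6 and 0 counts, and TkR86C had 0.613, 0.270 and 0.526 CPM. CCHa2-R and Dh31-R had means of 0.458 and 2.56 CPM. Lgr1 and Pdfr passed 10 CPM in controls 2 and 3 but not in control 1.

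Among receptors for amines, acetylcholine, GABA and glutamate, 9 of 24 were members (37.5%), close to the 36.3% of protein-coding genes. The muscarinic receptor mAChR-C, named CG12796 in the table, had 27.3, 29.4 and 22.5 CPM per kb. DopEcR, a receptor for dopamine and ecdysteroids, had 20.4, 25.9 and 25.7 CPM per kb. The tyramine receptors TyrRII and TyrR had 17.8 ± 3.53 and 5.20 ± 0.513 CPM per kb, and the serotonin receptor 5-HT1A had 9.29 ± 2.90 CPM per kb.

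Of 31 genes of vesicle release 24 were members (77.4%), against 36.3% of protein-coding genes, with a median of 33.1 CPM per kb. The synaptobrevin Syb had 319, 277 and 298 CPM per kb. The calcineurin subunits CanB and CanB2 had 182 ± 11.7 and 122 ± 9.82 CPM per kb, the calcium sensor Sytalpha 119 ± 12.5, and the adaptor subunit AP-1sigma 115 ± 16.1 CPM per kb. The SNAP genes Snap24 and Snap25, both of the fusion machinery, differed. Snap24 had 82.6, 76.8 and 41.7 CPM per kb, while Snap25 had 1.37, 1.78 and 1.61 CPM per kb and was no member. The ratio of Snap24 to Snap25 was 43.2 ± 17.3 (SD, n = 3), with Snap24 higher in all 3 samples. Leaving out the genes whose exons overlap others lowered the number of members in this list to 15.

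Of 16 genes for making or loading small transmitters, 4 were members (25%), near the 29.1% of the table and below the 36.3% of protein-coding genes. The vesicular transporter prt had 72.8, 69.04 and 88.96 CPM per kb. The other 3, Tbh, Gad1 and Cha, were under 5 CPM per kb. The vesicular transporters of acetylcholine (VAChT), monoamines (Vmat) and glutamate (VGlut) had means of 3.11, 0.658 and 0.111 CPM. Cha and VAChT share 606 bp on the same strand.

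Calcium and sodium channel genes counted 10 members of 15 (66.7%), against 36.3% of protein-coding genes, at a median of 13.8 CPM per kb. At a minimum of 10 TPM (transcripts scaled to a common sum), a unit corrected for gene length, 5 of the 15 passed, and 3964 genes of the whole table did. The Cav2 channel gene cac (chromosome X, 11931280 to 11985087) had 19.4, 23.2 and 30.0 CPM per kb. Stim, the calcium sensor of the endoplasmic reticulum (ER), had 25.6, 22.6 and 23.8 CPM per kb. The auxiliary alpha2delta subunits, stj and stol (CG4587 in the table), had 17.9 ± 4.06 and 17.9 ± 7.38 CPM per kb, and the L-type channel Ca-alpha1D had 16.0 ± 2.15 CPM per kb. The sodium channel para of action potentials had 5.25, 5.84 and 4.52 CPM and was no member. Per kb, cac exceeded para 77.8 ± 26.6 times (SD, n = 3).

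Potassium and cyclic nucleotide channels had 16 members of 25 (64.0%), against 36.3% of protein-coding genes, at a median of 8.37 CPM per kb. At a minimum of 10 TPM, which corrects for length, 6 of the 25 passed, beside 3964 of the 17558 genes of the table. The larger share at 10 CPM thus depended on the scale. CngA, a subunit of cyclic nucleotide-gated channels, led with 81.4, 99.0 and 75.4 CPM per kb. Its partner subunit CngB followed with 38.3, 29.6 and 35.7 CPM per kb, and CngA was 2.53 ± 0.708 times CngB. Ih, which encodes the hyperpolarization-activated channel, had 22.0, 30.9 and 34.5 CPM per kb. The leak channel sand (CG8713 in the table) had 25.97 ± 2.49 and the sulfonylurea receptor Sur 11.6 ± 1.17 CPM per kb.

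TrpA1 stood out among channels that sense the environment. This receptor of irritants and heat (chromosome 3L, 8894404 to 8904790) had 94.5, 139 and 112 CPM per kb, the highest level of any gene in the channel lists. Of 18 TRP and mechanosensory channel genes 5 were members (27.8%), near the share of the table. Besides TrpA1 these were the lysosomal channel Trpml (38.5 ± 8.37 CPM per kb), Tmem63 (CG11210 in the table, 6.49 ± 1.08), Trpm (4.37 ± 0.491) and Piezo (1.73 ± 0.684). Of 30 chloride and ligand-gated channels 5 were members (16.7%), led by ClC-b (21.6 ± 1.75 CPM per kb), pHCl-2 (CG11340 in the table, 11.8 ± 3.19) and the acetylcholine receptor subunit nAChRalpha5 (9.81 ± 2.81). ClC-c (6.63 ± 0.204) and Best1 (4.94 ± 0.257) were the other members.

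Taste receptor transcripts were scarce. Of 22 gustatory and ionotropic receptor genes 1 was a member (4.55%), Gr28b, with 12.5, 16.7 and 19.2 CPM. The fructose receptor Gr43a had 4.98, 4.70 and 4.43 CPM. Gr64b, Gr64c, Gr64d and Gr64e had 0 counts, but nearly all of their exon length is shared with one another, so their counts are uncertain. These values do not show in how many cells a receptor was made.

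All 14 genes of the EE subtype transcription factor list were members, against 36.3% of protein-coding genes, with a median of 19.1 CPM per kb. This list was taken from genes that the study examined. Nlp, a histone chaperone, was highest with 763, 629 and 489.8 CPM per kb. Fer1, a bHLH factor, followed with 103, 111 and 81.5 CPM per kb. Next was esg, a Snail family factor known from progenitors and from EEs of the middle midgut, with 53.5, 84.0 and 49.5 CPM per kb. The homeodomain factor Ptx1 had 39.2, 42.5 and 32.8 CPM per kb, and drm, a zinc finger factor, had 40.8, 28.5 and 21.1 CPM per kb.

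pros had 19.6, 20.8 and 32.3 CPM per kb, highest in control 3, and mirr, an Iroquois homeodomain factor, 15.1, 20.7 and 22.8 CPM per kb. Ptx1 exceeded mirr in all 3 samples, 2.03 ± 0.580 times. The 7 other factors were lower. Poxn had 18.8 ± 1.94, sug 12.9 ± 2.44, hbn 10.4 ± 1.88 and exex 8.73 ± 0.727 CPM per kb (SD, n = 3). The levels of dac, NK7.1 and mamo were 7.93 ± 0.328, 7.24 ± 1.20 and 5.60 ± 1.16 CPM per kb. pros and mamo have long exons, and in mean CPM only Nlp (677 ± 148 CPM) lay above pros (604 ± 175 CPM), which was followed by mamo (165 ± 34.3 CPM). In control 3 pros, with 805 CPM, was above Nlp, with 529 CPM.

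Proneural and neuroendocrine factors were split, with 12 members of 25 (48.0%), against 36.3% of protein-coding genes. E(spl)mbeta-HLH, a Notch target, had 65.5 ± 28.1 CPM per kb. tap, the fly relative of neurogenin genes, had 46.5, 63.8 and 56.8 CPM per kb. peb, dimm and ttk followed with 17.96 ± 2.31, 11.3 ± 4.71 and 10.1 ± 1.10 CPM per kb, dimm being known from peptidergic neurons. The proneural genes sc and ase had means of 0.505 and 0.718 CPM, ato had 1, 0 and 0 counts, and ac and l(1)sc had 0 counts in each sample.

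Among regional and GATA factors, 12 of 35 were members (34.3%), close to the share of protein-coding genes, and 6 passed a minimum of 10 TPM. fkh, a forkhead factor, had 28.5, 41.8 and 45.003 CPM per kb, and Ptx1, which is also in this list, 38.2 ± 4.94. GATAe, a factor of the endoderm, had 28.5, 27.997 and 25.6 CPM per kb, and cad, the fly Cdx gene, 28.4, 24.3 and 21.4 CPM per kb. The homeodomain cofactor exd had 24.5 ± 3.79 CPM per kb. Hox genes were below the minimum in at least 2 samples. lab had 5.54, 12.2 and 7.45 CPM, Abd-B 3.73, 4.29 and 5.32 CPM, and Antp, Ubx, abd-A, Scr, pb and Dfd had means under 1 CPM.

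Factors of stress, nutrient and secretory responses were the most complete of the regulator lists apart from the EE subtype factors, with 32 members of 37 (86.5%). Xbp1, which drives the expansion of the ER in secretory cells, had 376, 351 and 404 CPM per kb. crc, the fly ATF4, had 268, 268 and 195 CPM per kb. maf-S had 189, 192 and 193 CPM per kb, a CV of 0.890%. REPTOR-BP (CG18619 in the table) and Stat92E had 160.0 ± 39.1 and 63.9 ± 6.72 CPM per kb. Of the clock genes in this list tim was a member (29.2 ± 2.53 CPM per kb), while per and Clk were not.

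**Figure D3:**
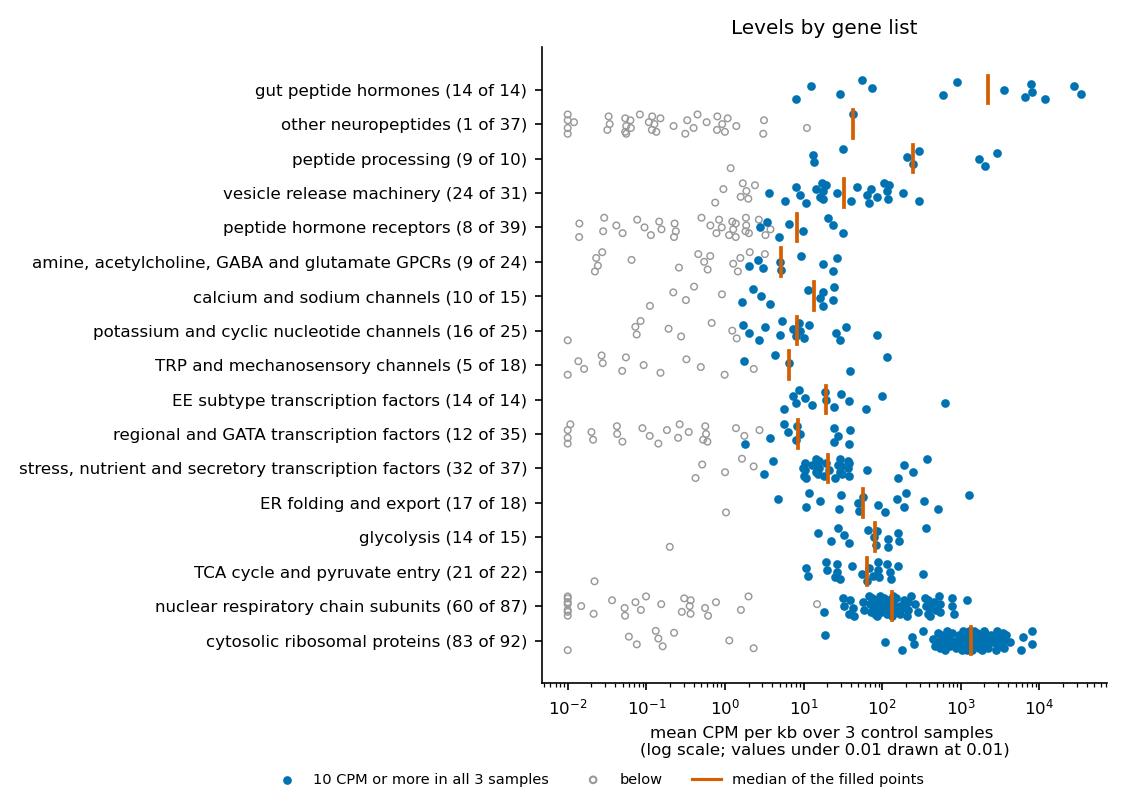
Mean level of each gene in CPM per kb over the 3 control samples (log scale) for 17 gene lists. Filled points are members, open points are genes below 10 CPM in at least 1 sample, orange bars are medians of the filled points, and the numbers give members of genes in the table. Among the lists drawn, hormones reach highest and have the highest median (2238 CPM per kb) and ribosomal protein genes follow (1345 CPM per kb), while the mitochondrially encoded genes, with a median of 3393 CPM per kb, are not drawn, and receptors, channels and regional factors lie mostly under 100 CPM per kb with many genes below the minimum.

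The secretory route was well covered. Of 18 genes of ER folding and export 17 were members (94.4%), at a median of 57.1 CPM per kb. Calreticulin (Crc in the table) had 1176, 1172 and 1426 CPM per kb. The translocon subunit Sec61beta had 465, 657 and 412 CPM per kb, and Pdi, a disulphide isomerase, 318, 339.7 and 358 CPM per kb. Sec61gamma and Hsc70-3, the BiP chaperone, had 199 ± 43.4 and 191 ± 50.2 CPM per kb. Ire1, the sensor that activates Xbp1, was the 1 gene of the list below the minimum (5.20, 4.36 and 2.94 CPM).

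Cytosolic ribosomal protein genes took 12.5% ± 0.659 of the counts (SD, n = 3), somewhat more than the hormones. Of these 92 genes 83 were members (90.2%), with a median of 1345 CPM per kb. The 9 others are second copies or relatives of ribosomal protein genes, and the highest of them, RpS19b, averaged 1.54 CPM. RpL41 and RpL23 were highest with 8164 ± 1689 and 8076 ± 417 CPM per kb. Counts of near-identical ribosomal protein copies and pseudogenes are uncertain. Proton pump (Vha) subunits, which acidify vesicles and lysosomes, had 19 members of 33 (57.6%), with Vha13 (819.5 ± 139 CPM per kb) and Vha16-1 (681 ± 50.4) highest. Proteasome subunits had 33 members of 48 (68.8%), at a median of 85.6 CPM per kb.

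Central carbon metabolism was represented nearly in full. Of 15 glycolytic genes 14 were members (93.3%), with a median of 80.3 CPM per kb. Gapdh2 had 307, 423 and 366 CPM per kb, above its copy Gapdh1 with 91.5, 112 and 149 CPM per kb, a ratio of 3.19 ± 0.671. PyK and Eno had 165 ± 17.7 and 161 ± 33.6 CPM per kb, and Ald had 118 ± 18.9 CPM per kb. Lactate dehydrogenase (ImpL3 in the table) had 83.7, 80.5 and 96.5 CPM per kb. Of the hexokinases, Hex-A had 13.1, 15.0 and 17.5 CPM per kb, while Hex-C was no member with 16, 9 and 7 counts.

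Of 22 genes of the TCA cycle and pyruvate entry 21 were members (95.5%), with a median of 64.8 CPM per kb. Mdh2, the mitochondrial malate dehydrogenase, had 333.6, 306 and 342 CPM per kb, and Scsalpha, a succinyl-CoA synthetase subunit, 186, 159.7 and 139 CPM per kb. The mitochondrial pyruvate carrier Mpc1 had 128 ± 19.6 CPM per kb, and SdhD (CG10219 in the table) 124 ± 10.05 CPM per kb. Mdh1 followed at 116 ± 17.8 CPM per kb.

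Nuclear genes of the respiratory chain had 60 members of 87 (68.97%), with a median of 135 CPM per kb, and took 1.33% ± 0.0853 of the counts. ATPsynC (CG1746 in the table) had 1347, 1214 and 1044 CPM per kb, and ND-AGGG (CG40002 in the table) 961, 889 and 637 CPM per kb. COX7A (CG9603) and COX7B (CG7630) had 781 ± 44.9 and 767 ± 147 CPM per kb. Mitochondrially encoded genes took 17.3%, 12.5% and 11.3% of the counts, the larger part of it mt:lrRNA, and were highest in control 1. The 12 members among these 37 genes had a median log2 ratio to their own mean of 0.31 in control 1, -0.17 in control 2 and -0.13 in control 3. For the nuclear subunits the same values were 0.03, 0.02 and -0.06, all close to 0. Among the 12, mt:ND1 (878, 709.8 and 1732 CPM), mt:ND2 and mt:srRNA were instead highest in control 3.

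Of 29 genes of lipid synthesis, storage and oxidation 19 were members (65.5%), against 36.3% of protein-coding genes. Npc2b, of the Niemann-Pick type C2 family of sterol-binding proteins (chromosome 3R, 14089517 to 14092425), stood far above the rest with 4301, 4902 and 2279.7 CPM per kb. It was 13.9 ± 4.75 times Npc2a (303, 266 and 254 CPM per kb). scu, yip2 and ATPCL were next, with 87.5 ± 16.9, 60.6 ± 15.2 and 49.7 ± 4.22 CPM per kb. Transporters of sugars and amino acids had 11 members of 25 (44.0%), beside the same 36.3%. sut2 had 109.6, 96.1 and 106 CPM per kb, and its neighbour sut1 49.7, 41.1 and 42.3 CPM per kb. The ratio of sut2 to sut1 was 2.35 ± 0.150 (SD, n = 3). The amino acid transporter path had 43.8 ± 5.66 CPM per kb, sbm (CG9413 in the table) 30.7 ± 2.66 and CG4991 19.99 ± 5.95. Glut1 was no member, with 2.92, 3.72 and 4.79 CPM.

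Glutathione transferases had 28 members of 35 (80.0%), with GstD1 (1309, 1815 and 1554 CPM per kb) and GstO3 (1383, 1149 and 1322 CPM per kb) highest, while cytochrome P450 genes had 29 of 87 (33.3%), near the 29.1% of the table and the 36.3% of protein-coding genes. The P450 list was matched by symbol, so the 29 and the 87 include Cyp1, which encodes a cyclophilin and no P450. Cyp1 had 957, 874 and 927 CPM per kb, and the P450 gene Cyp9h1 had 196, 176 and 244 CPM per kb. Heat shock and acute stress genes had 17 members of 21 (81.0%) and took 1.12%, 1.47% and 1.69% of the counts. Hsp23 had 1369, 2467 and 2632 CPM per kb, and Hsp26 605, 1015 and 1181 CPM per kb, both lowest in control 1. All 6 Hsp70 genes of the list were members, with Hsp70Aa highest (801, 1018 and 1167 CPM per kb). Their near-identical copies could divide reads among them, so single values are uncertain. Hsp22 had 0 counts, and its whole exon length of 1900 bp is shared with Hsp67Bb on the same strand, so this 0 says nothing of its level.

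Markers of other cell types were measured beside these lists. Enterocyte and digestive genes had 21 members of 33 (63.6%), against 36.3% of protein-coding genes, and the list summed to 3160, 2663 and 8539 CPM, highest in control 3. Jon99Cii and Jon99Ciii, serine proteases, led with 520.3, 752 and 2108, and 421, 602 and 1670.2 CPM per kb, and alphaTry, betaTry and gammaTry followed. These proteases have near-identical copies. The enterocyte factor nub was no member, with 4.39, 1.32 and 2.66 CPM, while Myo31DF had 119, 115 and 74.5 CPM and was lowest in control 3. None of the defining enterocyte markers was at 0. The part of enterocyte RNA in these values was not tested.

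Progenitor markers had 8 members of 11 (72.7%), against 36.3% of protein-coding genes, summing to 442, 378 and 356 CPM. This list overlaps lists described above: esg is also an EE subtype factor. Its highest gene, E(spl)mbeta-HLH (65.5 CPM per kb), is also in the proneural list. The count and the sums therefore include genes counted there too. Of the defining progenitor markers esg, Dl and klu were members and Sox21a was not (2.13, 1.28 and 1.61 CPM). Dl, the Notch ligand Delta, had 43.2, 14.4 and 14.3 CPM and was highest in control 1. Muscle markers had 1 member of 16 (6.25%), up, with 16.6, 15.7 and 24.2 CPM, and the list summed to 35.7, 33.8 and 43.2 CPM. Mhc, Act57B and Mlc2 were under 2.5 CPM in every sample and above 0 in each. Blood cell and fat body markers had 2 members of 13, crq (29.4 ± 3.41 CPM per kb) and Rfabg (14.0 ± 2.44), and summed to 273, 301 and 231 CPM. Hml and NimC1 of blood cells were highest in control 2, with 5.91 and 12.3 CPM, and Lsp2 of the fat body was at 0 in controls 2 and 3. None of 15 ovary and germline markers was a member, and they summed to 21.4, 13.9 and 10.4 CPM. Pan-neuronal genes had 7 members of 9 (77.8%), among them elav (43.9, 39.8 and 63.9 CPM) and brp (87.2, 104 and 127 CPM).

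Antimicrobial peptides and lysozymes had 5 members of 21 (23.8%), and all 5 were lysozymes. LysP had 57.0, 820.5 and 999.7 CPM per kb, lowest in control 1, while LysB had 230 ± 96.2 CPM per kb. The Lys genes have near-identical copies, so single values are uncertain. Of the antimicrobial peptide genes, Drs had 5.00, 18.9 and 3.49 CPM.

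Agreement between the control samples was high over the members as a whole. Spearman correlations of log2(CPM + 1) over the members, which are genes and not independent replicates, were 0.954 between controls 1 and 2, 0.947 between 1 and 3 and 0.9504 between 2 and 3. The 3 pairs share the sort and library method. Between 105 and 164 of the 5118 members differed more than 2-fold within a pair. The median CV of CPM over members was 13.8%, with quartiles of 8.67% and 20.6%. Counting error alone would give a median CV of 2.57%, and 4942 members had a CV above their own counting value. The median CV changed little with level, being 13.6% for the 1087 members under 20 CPM and 11.6% for the 141 members at 1000 CPM or more.

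**Figure D4:**
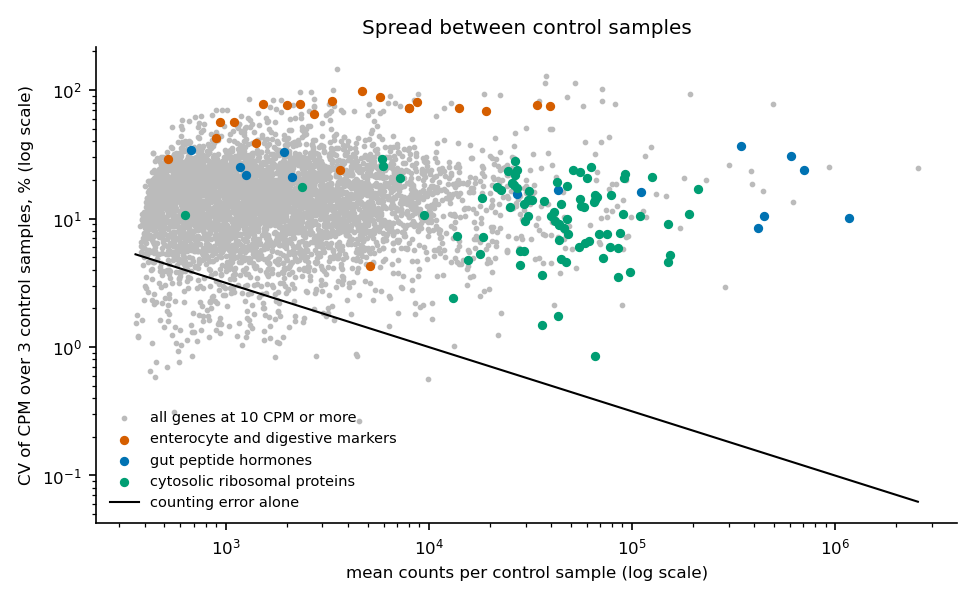
CV of CPM over the 3 control samples in percent (log scale) against the mean counts per sample (log scale) for all 5118 members, with enterocyte and digestive genes, gut peptide hormones and cytosolic ribosomal protein genes in colour. The black line is the CV that counting error alone would give. Nearly all points lie above the line, digestive genes at a median of 72.6%, hormones at 21.4% and ribosomal protein genes at 10.8%.

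Among members with a mean of at least 100 counts, the lowest CVs were those of Trxr-1, a thioredoxin reductase (129, 129 and 128 CPM, CV 0.265%), Rab9 (15.7, 15.6 and 15.7 CPM) and Appl, the amyloid precursor protein-like gene of neurons (280.0, 277 and 279 CPM). They were followed by CG31886, CR40354, CG5674, CG15877, CG7110, Pisd (CG5991 in the table) and CASK, all with a CV under 1%. All 10 CVs were below the value that counting error alone gives for the gene (0.265% against 1.48% for Trxr-1, 0.311% against 4.24% for Rab9), so these values do not show that the genes vary less than others.

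Hormones spread more than most members, with a median CV of 21.4%. AstA (CV 36.9%) was highest in control 1 and lowest in control 3, whereas Orcokinin (30.7%) was lowest in control 1 and highest in control 3. NPF (23.9%) was lowest in control 1. CCHa2 (8.47%), AstC (10.03%) and Tk (10.4%) were the steadiest of the 14. The EE subtype factors had a median CV of 18.4%, with dac lowest (4.14%) and drm highest (33.0%). Vesicle release genes had a median of 10.2%, with Syx1A the exception (53.5, 34.1 and 138 CPM, CV 73.6%). Syx1A shares 447 bp of its exons with 4EHP on the same strand.

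A CV of at least 50% was seen in 114 members. Of these, 18, 19 and 77 were highest in controls 1, 2 and 3, against 1971, 1625 and 1522 of all 5118 members. The lowest value was in control 1 for 46 of the 114, in control 2 for 57 and in control 3 for 11, against 1291, 1639 and 2188 of all members. The order highest in control 3 and lowest in control 2 was seen in 49 of them. In this order were the highest CV of all, that of CG18180 (18.6, 11.1 and 263 CPM, CV 147%), and CG12374 (683, 54.5 and 2295 CPM), CG42397 (66.4, 15.0 and 193 CPM), the trypsin gene epsilonTry (93.1, 23.9 and 267 CPM) and the ribosomal RNA pseudogene 28SrRNA-Psi:CR45860 (29.6, 27.5 and 137 CPM). Over the 21 digestive members, the median log2 ratio to the gene's own mean was -0.36 in control 1, -0.93 in control 2 and 0.86 in control 3.

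Of the 114, 46 were lowest in control 1. CG45080 had 273, 4771 and 1695 CPM, and CG1678 and CG16826, described above, were also lowest in control 1. CG4928 had 10.6, 61.8 and 157 CPM. Of the 46, 18 were highest in control 2 and 28 in control 3. The 18 members highest in control 1 were lowest in control 2 (8 genes) or control 3 (10 genes). Among them were 2 short long non-coding RNAs on the X chromosome, CR40469 (3110.3, 430.0 and 489.6 CPM) and CR34335 (2386, 189.5 and 309.6 CPM), both among the 10 members with the highest CV. These patterns were found after the values were seen, each rests on 1 sample against 2, and what lies behind them was not tested.

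**Figure D5:**
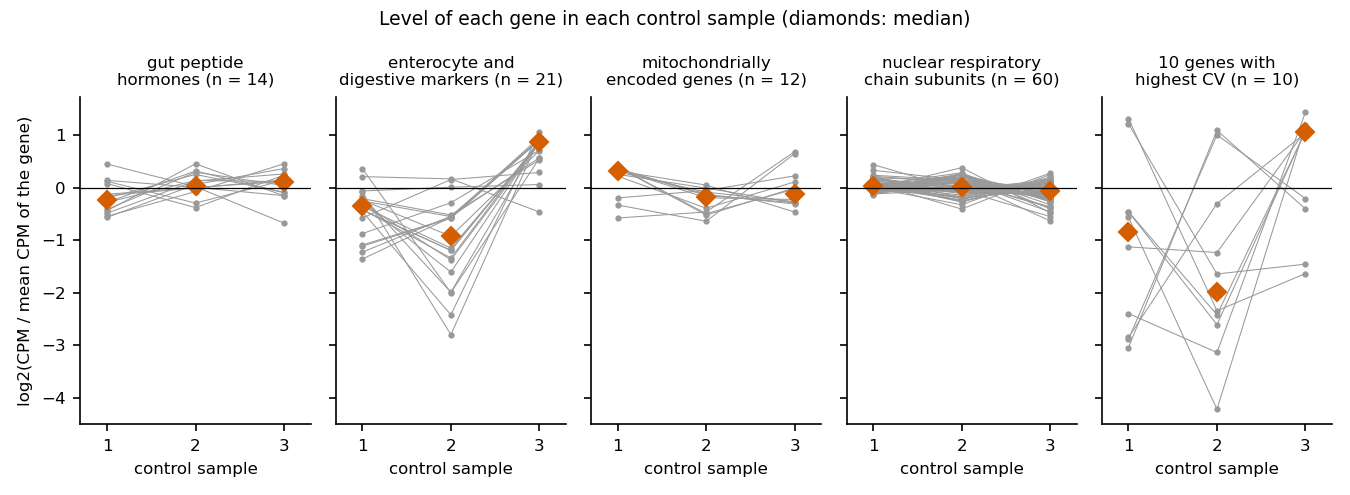
Log2 ratio of each gene's CPM to its own mean over the 3 control samples, in controls 1, 2 and 3, for 5 sets of members, with 1 grey line a gene and diamonds at the median of the set. By their median, enterocyte and digestive genes are highest in control 3 and lowest in control 2, though single genes such as Myo31DF differ. Most mitochondrially encoded genes are highest in control 1, and the medians of nuclear respiratory chain genes stay close to 0. The last panel holds the 10 members with the highest CV, which do not share 1 order.

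The 33 long non-coding RNAs among the members took 0.715% of the counts. CR42862 (chromosome 3L, 224106 to 230964) was highest in CPM and steady, with 2717, 2497 and 2895 CPM. It was followed by the variable CR40469 and CR34335, and by Hsromega, the heat shock RNA omega (561, 573 and 604 CPM), and mimi (CR31451 in the table, 262, 301 and 335 CPM). CR42862 shares 246 bp and Hsromega 150 bp of their exons with other genes on the same strand.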

How the data were processed

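Per the labels and methods, RNA of sorted EEs was amplified, sequenced as single-end reads of 50 bp and mapped to BDGP6. The authors counted reads per gene with featureCounts 1.6.3 and deposited raw counts, with exon lengths, for 17558 genes in 6 samples. Only the 3 control columns were used here, with 29602875 to 40766059 counts each. The methods speak of protein-coding genes, but the table also holds other classes. Whether counting used strand, and how reads with several positions were treated, is not given in the sources used here, so overlapping genes and near-identical copies are uncertain.

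CPM, CPM per kb, SD and CV (n - 1) were computed in Python 3.11.15 with pandas 2.3.3 and scipy 1.17.1, in scripts tested on simulated data. Symbols were matched to RefSeq for names and classes by symbol (12832) or synonym (4578), and 148 had no match. Names of the lists that were not found in the table were left out.

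The members and lists were chosen with earlier results of these data known. Genes named are the 20 highest by CPM and by CPM per kb, up to 5 of each list by CPM per kb, list genes whose absence is described, all gut hormones, processing genes and EE subtype factors, the 10 highest and 10 lowest CVs among members with a mean of at least 100 counts, and 3 genes on each side of the minimum. Others, such as Syx1A, mt:ND1, ImpL3, tim and CR42862, were named after their values were seen. Alternatives were other thresholds, TMM and RLE factors (edgeR 4.0.16 in R 4.3.3), subsets of genes and leaving out each sample.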

Additional observations from a re-analysis of the deposited data

How the results depend on the processing

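No paired analysis was possible because no groups were compared. Of 180 values recomputed under the alternatives, 144 moved by less than the spread between samples or, for counts, by less than 1.5 times. Every value with TMM or RLE factors was among them. Some could not move, so the 144 overstate stability. The ratio of AstC to Tk is taken within each sample and can change only when a sample is left out (3.20 to 3.93). The hormone share does not depend on the minimum. The 14 EE subtype factors were 10 without overlapping genes, 11 at 20 CPM and 12 at 10 TPM. The number of members, 5118, was 3386 without genes whose exons overlap another gene and 14995 with a minimum of 1 count in any sample. Their median level, 18.7 CPM per kb, was 13.9 at 5 CPM, 29.3 at 20 CPM, 17.2 with the minimum set on the mean, 20.4 without mitochondrially encoded genes, 19.97 without overlapping genes, 1.52 with 1 count and 28.2 at 10 TPM. Leaving out each sample gave 18.1 to 18.5 CPM per kb. The median CV, 13.8%, was 14.96% without mitochondrially encoded genes and 26.006% with 1 count, and 10.2% to 12.3% without 1 sample. Those last CVs rest on fewer samples, which lowers their median even at an unchanged spread, so they do not show dependence on a sample. The median Spearman correlation, 0.9504, was 0.960 at 5 CPM, 0.937 at 20 CPM, 0.944 on the mean, 0.973 with 1 count and 0.963 at 10 TPM, and 0.946 to 0.955 without 1 sample. Without mitochondrially encoded genes the 20 leading genes held 24.005% and the hormones 12.8% of the counts. Without overlapping genes, 8 glycolytic, 34 respiratory chain and 15 vesicle release genes remained members by construction. At 10 TPM there were 5 calcium and sodium channels, 3 receptors, 6 potassium and cyclic nucleotide channels and 6 regional factors, and at 20 CPM 5 receptors. With 1 count all 39 receptors, 25 potassium and cyclic nucleotide channels and 35 regional factors were counted. Shares of genes near the minimum, and levels of genes with overlapping exons or near-identical copies, are the least certain values. With 3 samples the SD and CV of a single gene are themselves imprecise.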
